A study of Mus musculus with 23 samples.

Results

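The vector by stress interaction asks whether a mild social stress moved gene expression in the mouse orbitofrontal cortex (OFC) differently under an astrocyte-directed ZBTB7A vector than under a GFP vector. For each gene it is the difference of 2 stress effects, (ZBTB7A stress minus ZBTB7A control) minus (GFP stress minus GFP control), on the log2(normalized count + 1) scale. A value above 0 means that stressed mice stood higher, or less far below their controls, under ZBTB7A than under GFP. All 23 of the 23 libraries of the study enter it: ZBTB7A stress (n = 5), ZBTB7A control (n = 5), GFP stress (n = 8) and GFP control (n = 5).

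All mice were wild-type male C57BL/6J animals with an age given as 8 weeks. ZBTB7A groups received AAV6-GFAP-ZBTB7A and GFP groups AAV6-GFAP-GFP into the OFC on day 0, so the transgene was driven by the promoter of the astrocyte gene Gfap and every mouse carried a virus. Stress groups went through subthreshold social defeat, a short exposure to an aggressor, on day 21, and control groups through a control condition. Every group was then tested for social interaction, sucrose preference and forced swimming on days 22 to 27, and infected tissue was dissected on day 28, so no group was free of surgery or of behavioural testing. The treatment field of the labels names the defeat for control mice too, and the groups here follow the separate field for the stress condition. Nothing says whether each library came from its own mouse, so p-values measure the spread between these samples.

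ZBTB7A is a zinc-finger transcription factor of the BTB family that binds DNA and recruits corepressor complexes. Astrocytes clear glutamate, buffer potassium and supply neurons with lactate and glutamine, and they turn reactive after injury or inflammation. The OFC weighs the value of outcomes and lies near white matter, striatum and the ventricles, so a dissection can take in some of each.

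Between 12.5 and 51.9 M reads were recovered in a library, and 18536 to 20238 genes had a value above 0. The check of the targeted gene did not separate the vectors: Zbtb7a (Entrez 16969) averaged 3744 ± 173 in ZBTB7A stress, 3716 ± 247 in ZBTB7A control, 3934 ± 251 in GFP stress and 3834 ± 629 in GFP control (normalized counts, SD, n = 5, 5, 8 and 5). The names ZBTB7A and GFP below are therefore the labels of the libraries, and every direction between vectors rests on those labels. Whether reads of the transgene count toward Zbtb7a was not tested, since the transgene's sequence is not given in the sources used here. Cortical excitatory neuron genes, the markers of the labelled tissue, were present in every library, with summed counts of 132937 to 289988. Striatal neuron genes set some libraries apart. A list level, the mean over the list's genes of the log2 value centred on the mean of all libraries, was 0.90 ± 0.58 in ZBTB7A stress, 0.12 ± 1.13 in ZBTB7A control, -0.92 ± 1.34 in GFP stress and 0.45 ± 0.59 in GFP control (SD) for these genes. The 5 libraries farthest from the median were ZBTB7A control 6 at 1.96 and GFP stress 5, 12, 20 and 21 at -1.94 to -2.36. The main results are therefore also given with the striatal level as a covariate and without these 5 libraries. Summed normalized counts of the striatal list were 74258 to 183002 in ZBTB7A stress, 36276 to 261194 in ZBTB7A control, 21385 to 107180.0 in GFP stress and 51413 to 125693 in GFP control. In bulk tissue, fewer cells of a type and less RNA per cell cannot be told apart.

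No gene passed for the interaction. Of 16385 genes tested with limma, 0 (0%) had a Benjamini-Hochberg adjusted p under 0.05, and the smallest adjusted p was 0.0976, for Cartpt. An unadjusted p under 0.05 was found for 1216 genes (7.42%), 924 above 0 (5.64%) and 292 below 0 (1.78%). Tests of the recovered reads called 0 genes with edgeR's quasi-likelihood test, with 1286 at an unadjusted p under 0.05 (809 above 0 and 477 below), and 3 with DESeq2, with 1391 unadjusted. The 3 genes of DESeq2 were Cartpt (adjusted p = 6.42e-05), Ntn1 (0.00737) and Kl (0.0321), all above 0. With limma array weights, which give each library a weight by its scatter, 2068 genes were called, 1162 above 0 and 906 below. The lowest weight, 0.215, went to ZBTB7A control 6, and leaving that library out of the unweighted fit called 79 genes, 69 above 0 and 10 below. Without ZBTB7A stress 17 or GFP stress 22 there was 1 call and without GFP stress 13 there were 2, while the unadjusted count was 3406 without ZBTB7A control 6, 2104 without GFP control 11 and 720 to 742 without ZBTB7A control 23, ZBTB7A stress 9 or ZBTB7A control 15.

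Each stress effect alone gave 0 calls with limma. Under ZBTB7A, 272 genes (1.66%) had an unadjusted p under 0.05, 177 higher (1.08%) and 95 lower (0.58%) in stress. DESeq2 called 1 gene there, higher in stress. Under GFP there were 1839 genes (11.2%), 535 higher (3.27%) and 1304 lower (7.96%) in stress, and DESeq2 called 39 genes, 3 higher and 36 lower. The GFP comparison holds 8 stress libraries and the ZBTB7A comparison 5, and the counts were not compared by a test. Their order turned round without the 5 far libraries. That fit drops GFP stress 5, 12, 20 and 21 and ZBTB7A control 6, so it takes more libraries from the GFP comparison. In it there were 1803 genes under ZBTB7A (11%), 865 higher and 938 lower in stress, and 910 under GFP (5.55%), 298 higher and 612 lower. Without ZBTB7A control 6 alone there were 1589 under ZBTB7A, 755 higher and 834 lower, and 2411 under GFP. The count under ZBTB7A was 153 without ZBTB7A stress 9 and 165 without ZBTB7A control 15, and that under GFP 3036 without GFP control 11.

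Cartpt (Entrez 27220), the precursor of the neuropeptide CART, gave the smallest p of all genes. Its normalized count was 411, 384, 200.2, 299.6 and 466 in the 5 ZBTB7A stress libraries and 192, 69.2, 113, 138 and 115 in the 5 ZBTB7A control libraries. It ran from 78.8 over a median of 120.5 to 202 in the 8 GFP stress libraries and was 241, 207, 191, 211 and 310.4 in the 5 GFP control libraries. Every ZBTB7A stress library lay above every ZBTB7A control library, a separation seen in 40 of the 16385 genes (0.244%). Of the 8 GFP stress libraries, 7 lay below the lowest GFP control library. How many of all genes order the GFP groups in such a way was not counted, here or for the genes below.

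The stress effect on Cartpt was 1.498 ± 0.30 under ZBTB7A and -0.88 ± 0.27 under GFP (log2, SE), which gave an interaction of 2.38 ± 0.40. The stress fold under ZBTB7A was thus 5.21 times that under GFP, with a 95% interval of 2.92 to 9.28. An exact permutation of the stress labels within each vector, over 324324 arrangements, gave p = 6.48e-05. Its null is no stress effect under either vector, it is two-sided, and it is not adjusted for the choice of this gene among 16385. The interaction was 1.76 with the striatal level as a covariate and 2.24 without the 5 far libraries. Leaving out 1 library gave 2.19 to 2.57, and the limma adjusted p was under 0.05 without ZBTB7A stress 17 (0.0290), ZBTB7A control 6 (0.0183), GFP stress 13 (0.0358) or GFP stress 22 (0.0446).

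The promoters of the genes that DESeq2 called are shown because these genes carry the only interaction calls made on counts. RefSeq windows from 250 bases before to 50 bases after the start were found for 2 of the 3, Cartpt at chr13:99900634-99900933 on the minus strand and Kl at chr5:150952357-150952656 on the plus strand (GRCm38.p6), and none was used for Ntn1. Capitals mark matches to TGACGTCA, the cAMP response element, and to GGGCGG, the GC box, both read on either strand, with no overlap between them.
Cartpt: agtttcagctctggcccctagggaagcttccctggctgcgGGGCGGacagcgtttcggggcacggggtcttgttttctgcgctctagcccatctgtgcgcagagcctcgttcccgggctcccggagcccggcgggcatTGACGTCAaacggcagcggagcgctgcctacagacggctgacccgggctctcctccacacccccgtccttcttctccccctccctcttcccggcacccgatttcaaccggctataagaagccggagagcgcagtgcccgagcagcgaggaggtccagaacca
Kl: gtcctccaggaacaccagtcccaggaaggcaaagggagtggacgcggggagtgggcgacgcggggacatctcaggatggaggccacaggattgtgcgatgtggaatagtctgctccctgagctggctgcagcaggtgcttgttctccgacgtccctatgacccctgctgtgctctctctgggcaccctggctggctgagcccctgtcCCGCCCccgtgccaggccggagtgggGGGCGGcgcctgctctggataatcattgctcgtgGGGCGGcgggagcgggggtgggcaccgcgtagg
The Cartpt window holds TGACGTCA at bases 139 to 146, 112 bases before the start, and GGGCGG at bases 41 to 46. The Kl window holds 3 GC boxes, at bases 208 to 213, 234 to 239 and 268 to 273. Of all 32851 windows of this length, 588 (1.79%) hold TGACGTCA and 11714 (35.7%) hold GGGCGG on either strand. A match is a description of these letters, and no binding was measured.

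Ntn1 (Entrez 18208), which codes for the axon guidance cue netrin-1, was the second. Its normalized count was 542, 562, 460.0, 475 and 793 in the 5 ZBTB7A stress libraries and 402, 262, 287, 280.3 and 318 in the 5 ZBTB7A control libraries. It ran from 210.0 over a median of 279 to 497 in the 8 GFP stress libraries and was 357, 441, 344, 483 and 518 in the 5 GFP control libraries. All 5 ZBTB7A stress libraries lay above all 5 ZBTB7A control libraries, and the GFP groups overlapped. The interaction was 1.398 ± 0.27 (log2, SE; limma adjusted p = 0.262; exact permutation p = 0.000216, unadjusted), made of 0.86 ± 0.20 under ZBTB7A and -0.54 ± 0.18 under GFP. It was 0.85 with the striatal level as a covariate. Without GFP stress 13 its adjusted p was 0.0276 in limma, and without ZBTB7A control 6 it was 0.0342.

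Kl (Entrez 16591), the co-receptor for fibroblast growth factor 23 known as klotho and abundant in choroid plexus, was the third. Its normalized count was 123, 93.9, 71.6, 80 and 165 in the 5 ZBTB7A stress libraries and 56, 37.6, 41.7, 66.7 and 108 in the 5 ZBTB7A control libraries. It ran from 44.8 over a median of 59 to 102 in the 8 GFP stress libraries and was 309, 93.6, 213, 95.1 and 106 in the 5 GFP control libraries. The ZBTB7A groups overlapped. Of the 8 GFP stress libraries, 7 lay below the lowest GFP control library, a pattern not counted over all genes. The interaction was 2.002 ± 0.44 (log2, SE; limma adjusted p = 0.668; exact permutation p = 0.000247, unadjusted), from 0.81 ± 0.33 under ZBTB7A and -1.19 ± 0.30 under GFP. With the striatal, olfactory bulb and choroid plexus levels as covariates its interaction was 1.45. Kl itself helps to set the choroid plexus level, so that fit is not an independent check of this gene.

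Zbtb7c (Entrez 207259), a close relative of ZBTB7A in the same transcription factor family, was the fourth. Its normalized count was 204, 196, 189, 138 and 276 in the 5 ZBTB7A stress libraries and 135, 131, 83.4, 128 and 135 in the 5 ZBTB7A control libraries. It ran from 112 over a median of 136 to 179 in the 8 GFP stress libraries and was 179, 161, 161, 172 and 168 in the 5 GFP control libraries. All ZBTB7A stress libraries again lay above all ZBTB7A control libraries, the lowest being 138 against a highest of 135 normalized counts, and the GFP groups overlapped. The interaction was 0.94 ± 0.22 (log2, SE; limma adjusted p = 0.668; exact permutation p = 0.000913, unadjusted) and stayed between 0.81 and 1.07 with any 1 library left out.

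**Figure D1:**
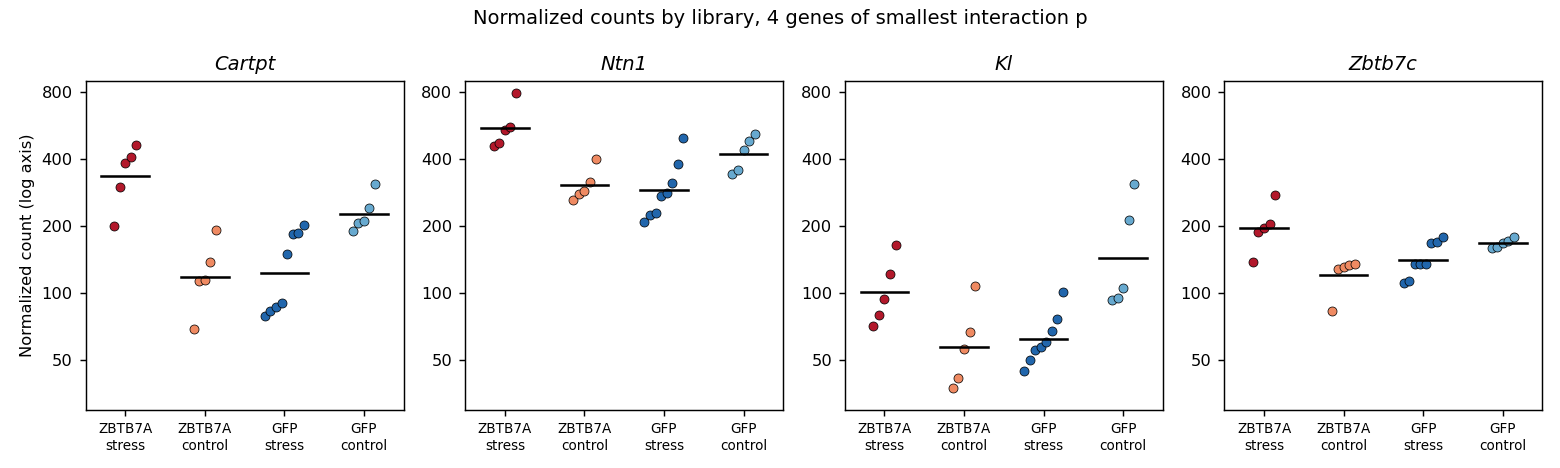
Normalized counts of Cartpt, Ntn1, Kl and Zbtb7c (log axis, the same range in each panel) in ZBTB7A stress, ZBTB7A control, GFP stress and GFP control. Each point is a library and each line the group mean of log2 values. For Cartpt, Ntn1 and Zbtb7c the ZBTB7A stress points all lie above the ZBTB7A control points, and in all 4 panels the GFP stress line lies below the GFP control line.

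The other 8 genes of smallest p above 0 differed in their spread between libraries, which was small in 4 of them. Cald1, the actin-binding caldesmon, had mean normalized counts of 683 ± 51.9 in ZBTB7A stress, 586 ± 93.6 in ZBTB7A control, 543 ± 50.4 in GFP stress and 712 ± 111 in GFP control (SD) and an interaction of 0.61 ± 0.15 (log2, SE). Pdzd2, a PDZ domain protein, had mean normalized counts of 3026 ± 419 in ZBTB7A stress, 2385 ± 641 in ZBTB7A control, 2094 ± 205 in GFP stress and 2671 ± 182 in GFP control, and its interaction was 0.72 ± 0.17. The engulfment adaptor Gulp1 had 1.19 ± 0.30 and the predicted gene Gm8942 0.52 ± 0.14. With the striatal level as a covariate these 4 interactions were 0.56 for Cald1, 0.39 for Pdzd2, 0.70 for Gulp1 and 0.52 for Gm8942. Without ZBTB7A control 6 the limma adjusted p was 0.047 for Cald1, 0.0183 for Pdzd2 and 0.0404 for Gulp1, and Gm8942 was not called.

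The 4 genes of large spread were Nts, the precursor of neurotensin, Dlk1, an imprinted ligand of the Notch family, Clic6, a chloride channel protein of choroid plexus, and Htr4, a serotonin receptor. Nts had a normalized count of 111, 254, 51.4, 88.9 and 166 in the 5 ZBTB7A stress libraries and 295, 16.6, 10.4, 22.2 and 48.4 in the 5 ZBTB7A control libraries. It ran from 5.94 over a median of 22.8 to 61.6 in the 8 GFP stress libraries and was 278, 182, 41.3, 62.6 and 88.9 in the 5 GFP control libraries. ZBTB7A control 6 held the highest value of all 23 libraries, so the ZBTB7A groups overlapped. In GFP stress, 6 of the 8 libraries lay below every GFP control library, a pattern not counted over all genes. The interaction was 4.10 ± 1.05 (log2, SE), 1.97 with the striatal level as a covariate and 1.32 with 3 tissue levels. Dlk1 gave 3.92 ± 0.97, and 1.94 and 0.89 with those covariates. Clic6, which helps to set the choroid plexus level, gave 3.84 ± 0.94, and 1.88 and 0.85. Htr4 gave 1.76 ± 0.46, and 0.85 and 0.77. Each of these 4 was higher without ZBTB7A control 6, at 4.85, 4.60, 4.52 and 1.98 in the same order, and all 4 had an adjusted p under 0.05 in that fit.

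The 11 genes described below 0 had interactions of -0.55 to -0.25. Nt5m, a mitochondrial nucleotidase, had the smallest p among them. Its normalized count was 577, 526, 618, 590.3 and 539 in the 5 ZBTB7A stress libraries and 565, 616, 679, 617 and 615 in the 5 ZBTB7A control libraries. It ran from 586 over a median of 668 to 712 in the 8 GFP stress libraries and was 574, 577, 586, 636 and 574 in the 5 GFP control libraries. All 8 GFP stress libraries lay above 4 of the 5 GFP control libraries, and the ZBTB7A groups overlapped. The interaction was -0.28 ± 0.08 (log2, SE; exact permutation p = 0.0013, unadjusted). Pgm1, a phosphoglucomutase, had mean normalized counts of 209.7 ± 14.3 in ZBTB7A stress, 237 ± 6.23 in ZBTB7A control, 238 ± 28.4 in GFP stress and 205 ± 14.6 in GFP control. Its interaction was -0.39 ± 0.12. All 5 ZBTB7A stress libraries lay below all 5 ZBTB7A control libraries, a direction of separation that was not counted over all genes.

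The other 9 were Atad2 (-0.55 ± 0.16), a chromatin factor with an ATPase domain, Poc1a (-0.49 ± 0.15), a centriole protein, Galt (-0.48 ± 0.16), an enzyme of galactose metabolism, and Acta1 (-0.46 ± 0.16), skeletal muscle actin, followed by Tmem42 (-0.43 ± 0.14), Tomm5 (-0.40 ± 0.13) of the mitochondrial import pore, Ntmt1 (-0.31 ± 0.09), an N-terminal methyltransferase, Zmynd19 (-0.30 ± 0.09) and Coq2 (-0.25 ± 0.08) of coenzyme Q synthesis (log2, SE). In each of these 11 genes the stress effect was below 0 under ZBTB7A, at -0.24 to -0.04, and above 0 under GFP, at 0.17 to 0.39. With all libraries none passed the test, and all had a limma adjusted p of 0.668. Without ZBTB7A control 6, Poc1a had -0.595 with a limma adjusted p of 0.0493.

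**Figure D2:**
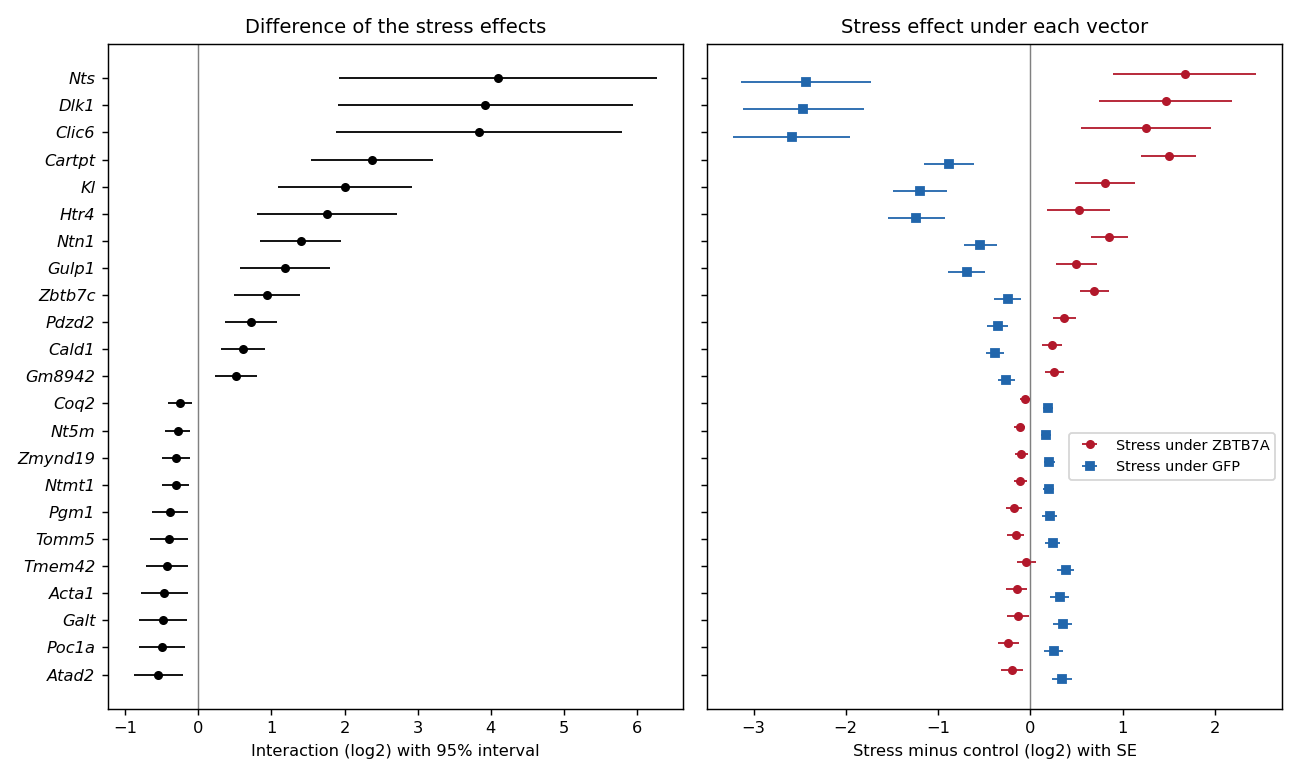
The 12 genes of smallest p above 0 and 11 of the 12 below 0 among genes with a mean of 50 or more, ordered by their interaction. The left panel gives the interaction (log2) with its 95% interval, and the right panel the stress effect (log2, with SE) under ZBTB7A as circles and under GFP as squares; the signs under the 2 vectors are opposite for all 23 genes, a pattern that choosing genes by the difference of the 2 effects favours.

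Across all 16385 genes the 2 stress effects, which share no library, ran in opposite directions more than in the same direction. Their correlation across genes was -0.367 (Pearson) and -0.256 (Spearman), and 9462 genes (57.7%) had opposite signs. This is a description: genes are not independent replicates, and the genes share the libraries. With the striatal level as a covariate the correlations were -0.085 and -0.017 and the share of opposite signs 50.4%, and without ZBTB7A control 23 they were -0.191 and -0.043 with 49.7%. Over all fits with 1 library left out, Pearson's value ranged from -0.596 without ZBTB7A control 6 to -0.175 without ZBTB7A stress 9.

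**Figure D3:**
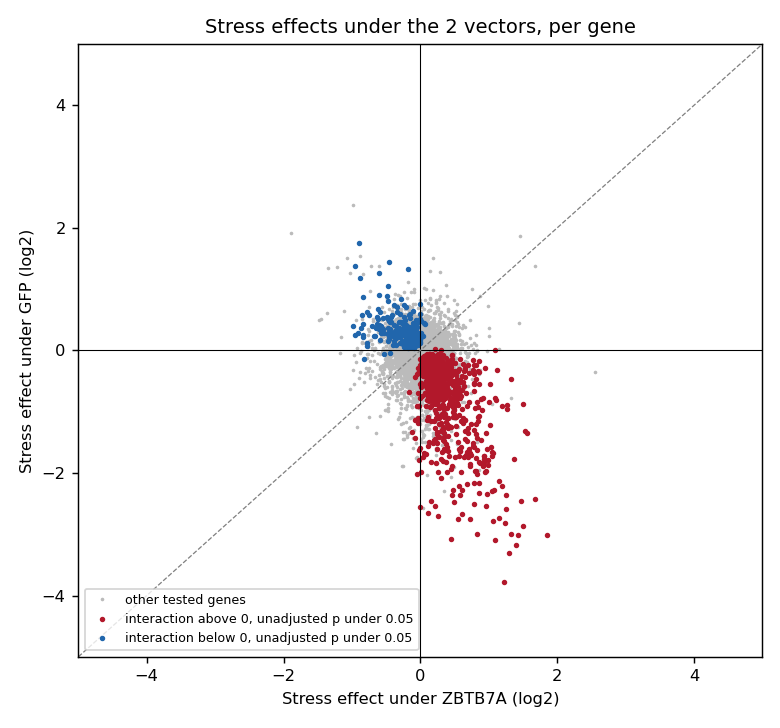
Stress effect under ZBTB7A (log2, horizontal) against stress effect under GFP (log2, vertical) for the genes tested, with the line of equal effects dashed; 1 gene lies beyond the axes. Red points are the 924 genes with an interaction above 0 at an unadjusted p under 0.05, mostly in the lower right quadrant, and blue points the 292 below 0, mostly in the upper left.

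The gene lists with the highest median interactions were the choroid plexus and ependymal list, the striatal list and the septal, thalamic and hypothalamic list. Which tissue or cells their RNA came from was not tested. None of the lists' members passed the test, beside a median interaction of 0.01 and 52.4% of genes above 0 over all genes tested. At an unadjusted p under 0.05, 5.64% of all genes were above 0 and 1.78% below 0, the background for the counts of every list. Striatal medium spiny neuron genes had a median interaction of 2.01 (log2), with 26 of 26 members above 0 and 25 at an unadjusted p under 0.05, where the background is 5.64% in that direction. The median stress effect of these genes was 0.80 under ZBTB7A and -1.30 under GFP.

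Six3, a homeobox factor of striatal neurons, had a normalized count of 961, 989, 400.3, 485 and 757 in the 5 ZBTB7A stress libraries and 1379.5, 211, 65.5, 246 and 295 in the 5 ZBTB7A control libraries. It ran from 4.11 over a median of 138 to 583 in the 8 GFP stress libraries and was 530.2, 674, 282, 512 and 642 in the 5 GFP control libraries. GFP stress 5, 12, 20 and 21 held 4.11 to 26.03 normalized counts and ZBTB7A control 6 held 1379.5, the extremes of the 23 libraries, and both pairs of groups overlapped. Its interaction was 4.33 ± 1.54 (log2, SE), and 0.51 with the striatal level as a covariate, a level that Six3 helps to set. The other members of smallest p were Ankk1, a kinase gene beside Drd2, at 2.96 ± 1.01, the opioid peptide precursor Pdyn at 1.21 ± 0.44 and the retinoic acid receptor Rarb at 1.76 ± 0.64. Penk, the enkephalin precursor, had mean normalized counts of 11652 ± 4831 in ZBTB7A stress, 7455 ± 7972 in ZBTB7A control, 3961 ± 2896 in GFP stress and 7602 ± 3380.3 in GFP control and an interaction of 2.24 ± 0.83. The dopamine receptors Drd2 and Drd1 had 3.34 and 1.93. The list's median was 1.28 without the 5 far libraries, with 25 of 26 members at an unadjusted p under 0.05 (10.6% of all genes). It was -0.01 with the level of its own genes as a covariate. Those 5 libraries were chosen by the level of these same genes, so neither fit is an independent check of this list.

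Choroid plexus and ependymal genes, which mark the lining of the ventricles, had a median interaction of 2.20, with 17 of the 18 tested members (of 20) above 0 and 13 at an unadjusted p under 0.05. Clic6 had a normalized count of 193, 206, 70.7, 100.5 and 183 in the 5 ZBTB7A stress libraries and 389.9, 19.6, 23.8, 45.6 and 74.4 in the 5 ZBTB7A control libraries. It ran from 10.4 over a median of 42.3 to 105 in the 8 GFP stress libraries and was 410.0, 237, 268, 143 and 129.8 in the 5 GFP control libraries. All 8 GFP stress libraries lay below all 5 GFP control libraries, and the ZBTB7A groups overlapped. The share of all genes with such a separation of the GFP groups was not counted. Otx2, a homeobox factor of choroid plexus, had mean normalized counts of 20.5 ± 14.6 in ZBTB7A stress, 14.6 ± 25.1 in ZBTB7A control, 5.04 ± 4.6 in GFP stress and 44.1 ± 42 in GFP control and an interaction of 4.36 ± 1.18, and the secreted protein Mia had 2.79 ± 0.80. Ttr, the transthyretin carrier that choroid plexus secretes in quantity, had 1.95 and did not reach an unadjusted p under 0.05. Its stress effect was -3.43 under ZBTB7A and -5.37 under GFP, where the list's medians were 0.26 and -1.98. Aqp1 had an interaction of -0.64. Summed counts of the list were 5287 to 7483 in ZBTB7A stress, 5589 to 9391 in ZBTB7A control, 4949 to 6328 in GFP stress and 5866 to 21255 in GFP control. The member Enpp2 held at least 4290 normalized counts in every library, a large part of the lower sums. The median was 1.54 with the striatal level as a covariate, 2.28 without the 5 far libraries and -0.11 with 3 tissue levels, of which the list's own is 1.

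Septal, thalamic and hypothalamic genes had a median of 1.76, with 16 of the 17 tested members (of 22) above 0 and 11 at an unadjusted p under 0.05. Isl1, a homeobox factor of cholinergic and other forebrain neurons, had a normalized count of 171, 229, 43.2, 63.1 and 151 in the 5 ZBTB7A stress libraries and 255, 24.1, 16.4, 34.5 and 47.3 in the 5 ZBTB7A control libraries. It ran from 0 over a median of 22 to 75.6 in the 8 GFP stress libraries and was 208, 147, 68, 90.5 and 102 in the 5 GFP control libraries. The ZBTB7A groups overlapped, and 7 of the 8 GFP stress libraries lay below all GFP control libraries, a pattern not counted over all genes. Its interaction was 4.61 ± 1.34, and the cholinergic markers Slc5a7, the choline transporter, and Chat, the acetylcholine synthase, had 2.81 ± 0.89 and 3.41. Ecel1, a neuronal endopeptidase, had 2.92 ± 0.91 and the zinc-finger factor Zic1 1.91 ± 0.65. Calb2, Rora, Trpc4, Ngb and Tcf7l2, also in the list, had -0.01, 0.13, 0.28, 0.46 and 0.62. The list's summed counts were 4405 to 9385 in ZBTB7A stress, 2919.6 to 15364 in ZBTB7A control, 2863 to 5419 in GFP stress and 4778 to 14199.7 in GFP control. Its median was 0.69 with the striatal level as a covariate, with 0 members at an unadjusted p under 0.05. Without the 5 far libraries the median was 1.73. Whether these genes mark tissue other than striatum was not tested.

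**Figure D4:**
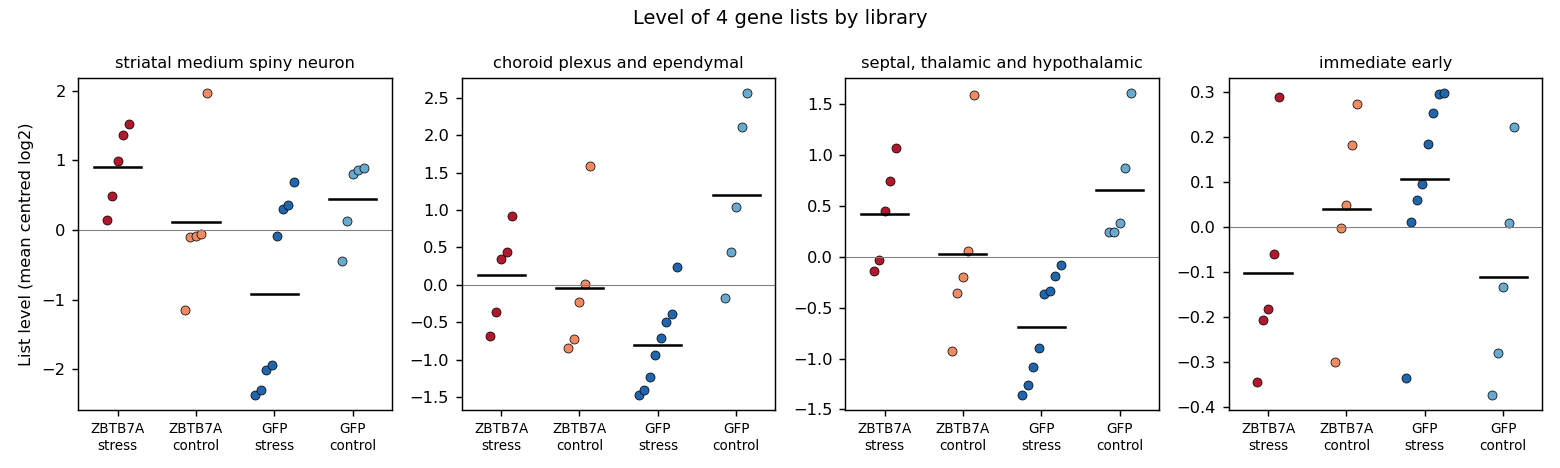
Level of 4 gene lists (mean centred log2 value; each panel has its own range) in ZBTB7A stress, ZBTB7A control, GFP stress and GFP control. Points are libraries and lines group means; in the first 3 panels ZBTB7A control 6 stands at 1.96, 1.58 and 1.59, above the rest of its group, and the GFP stress line lies below the GFP control line.

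Oligodendrocyte and myelin genes had a median interaction of 0.88, with 25 of 25 members above 0 and 7 at an unadjusted p under 0.05. Mal, a myelin proteolipid, had mean normalized counts of 5484 ± 1333 in ZBTB7A stress, 4593 ± 1821 in ZBTB7A control, 3523 ± 1506 in GFP stress and 5819.9 ± 2479.6 in GFP control and an interaction of 1.05 ± 0.46 (log2, SE). The lineage factor Olig1 had 0.58 ± 0.26, the hydroxylase Fa2h 1.08 ± 0.50 and the myelin basic protein gene Mbp 0.94. The list's median was 0.17 with the striatal level as a covariate, -0.42 with 3 tissue levels and 0.54 without the 5 far libraries. In that last fit 1 member had an unadjusted p under 0.05, beside 10.6% of all genes.

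Astrocyte genes, the cells that the vector was built to reach, were held in a homeostatic and a reactive list. Homeostatic astrocyte genes had a median interaction of 0.07, with 14 of 20 above 0. Near the share of 5.64% over all genes above 0, 1 member had an unadjusted p under 0.05, the bicarbonate transporter Slc4a4 at 0.37 ± 0.16. The glutamate transporters Slc1a2 and Slc1a3 had -0.03 ± 0.10 and 0.07 ± 0.13, the glutamine synthetase gene Glul 0.06 ± 0.11, the water channel Aqp4 0.31 ± 0.25, the connexin Gja1 0.30 ± 0.17, the membrane protein Mlc1 0.27 ± 0.19 and the potassium channel Kcnj10 0.19 ± 0.15 (log2, SE). For Slc1a2 the 95% interval was -0.24 to 0.18, at group means between 55088 and 57272 normalized counts.

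Reactive astrocyte genes had a median of 0.50, with 27 of the 28 tested members (of 29) above 0 and 3 at an unadjusted p under 0.05. These were Fbln5, an extracellular matrix protein, at 0.70 ± 0.25, Tm4sf1 at 0.76 ± 0.34 and the ferroxidase Cp at 0.74 ± 0.35. Gfap was 11733, 14078, 19524, 7817 and 6598 normalized counts in ZBTB7A stress, 18044, 16701, 11154, 5208 and 8427 in ZBTB7A control, 2839.7 over a median of 5735 to 11345 in GFP stress and 7059.9, 11271, 26388, 4329.6 and 8411 in GFP control. All 4 ranges overlapped, and its interaction was 0.67 ± 0.61 with a 95% interval of -0.61 to 1.94, and -0.65 with 3 tissue levels. Leaving out GFP control 10 gave 0.30, and leaving out ZBTB7A control 23 gave 0.40. Lcn2, the secreted lipocalin, had 1.20 ± 1.80, the complement gene C3 1.49 ± 1.54 and the chemokine Cxcl10 0.30 ± 0.95, each smaller than its SE; without GFP control 10 they were 0.11, 0.62 and -0.10. The list's median was 0.19 without GFP control 10, the library highest in Gfap and Lcn2, 0.23 with the striatal level as a covariate and -0.22 with 3 tissue levels. Nfkbia, the inhibitor of NF-kB, had 0.39 ± 0.23 (exact permutation p = 0.058, unadjusted), and 0.17 without GFP control 2, the highest library of its group.

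The excitatory neuron and presynaptic lists had medians below 0. Excitatory neuron and cortical layer genes had a median of -0.25, with 18 of 26 below 0, 1 at an unadjusted p under 0.05 below 0 and 2 above. Nrgn, the calmodulin-binding neurogranin, had a normalized count of 34731, 31785, 38813, 37947 and 22663 in the 5 ZBTB7A stress libraries and 30110.3, 42371, 40832, 49842 and 29539.8 in the 5 ZBTB7A control libraries. It ran from 41949 over a median of 50009.5 to 61533 in the 8 GFP stress libraries and was 22239, 31598, 43919, 57908 and 40721 in the 5 GFP control libraries. All 8 GFP stress libraries lay above 3 of the 5 GFP control libraries, and the ZBTB7A groups overlapped. Its interaction was -0.63 ± 0.28 (log2, SE), and the kinase gene Camk2a had -0.36 ± 0.19. The forkhead factor Foxp2, which striatal neurons also use, and the corepressor Tle4 had 1.13 ± 0.38 and 0.36 ± 0.17. The median was -0.43 without ZBTB7A control 6, -0.16 without ZBTB7A control 15 or 23 and 0.16 with the striatal level as a covariate. Without the 5 far libraries it was -0.27. In that fit 9 members had an unadjusted p under 0.05, beside 10.6% of all genes.

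Presynaptic vesicle and release genes had a median of -0.23, with 23 of 26 below 0 and 0 at an unadjusted p under 0.05 in limma. Without the 5 far libraries 10 of the 26 had an unadjusted p under 0.05, beside 10.6% of all genes in that fit, and the median was -0.28. Among the members of smallest p were Stx1a at -0.55 ± 0.32, Syp at -0.27 ± 0.18 and Syt1 at -0.27 ± 0.19, parts of the machinery that docks and fuses vesicles. With the striatal level as a covariate Syp and Syt1 turned to 0.04 and 0.08 and the median to 0.05, and without ZBTB7A control 6 the median was -0.35, with Stx1a, Syp and Syt1 at -0.85, -0.42 and -0.45. Inhibitory neuron genes had a median of 0.03, with 12 of 24 above 0 and 4 at an unadjusted p under 0.05. These 4, Gad2 at 1.00 ± 0.30, Tac1 at 1.84 ± 0.71, Dlx6 at 1.25 ± 0.48 and Slc32a1 at 0.82 ± 0.37, also serve the GABA neurons of the striatum. The other 20 members lay between -0.58 for Vip and 0.86 for Dlx5. Without the 5 far libraries the median was 0.06, with 7 members at an unadjusted p under 0.05, beside 10.6% of all genes. With the striatal level as a covariate it was 0.09, with 0 such members, beside 2.04% of all genes.

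Immediate early genes, which neurons switch on after activity, had a median of -0.31, with 23 of 25 below 0 and 2 at an unadjusted p under 0.05. Their median stress effect was -0.14 under ZBTB7A and 0.23 under GFP. The 2 genes were Btg2, an antiproliferative factor, at -0.69 ± 0.28 and the phosphatase gene Dusp6 at -0.62 ± 0.26. Npas4, an activity-dependent transcription factor, had a normalized count of 632, 527, 349, 461 and 551 in the 5 ZBTB7A stress libraries and 500.1, 649, 305, 767 and 439 in the 5 ZBTB7A control libraries. It ran from 431 over a median of 615 to 913 in the 8 GFP stress libraries and was 428, 249, 384, 643 and 253 in the 5 GFP control libraries. All 4 groups overlapped, and the interaction was -0.72 ± 0.36, and -0.86 with the striatal level as a covariate. Fos had -0.63 ± 0.39 and Dusp1 -0.60 ± 0.33. The list's median was -0.19 with the striatal level as a covariate and -0.26 without the 5 far libraries.

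Glucocorticoid receptor and target genes, the transcriptional arm of the stress hormone response, had a median of 0.09, with 16 of 24 above 0. Near the share of 5.64% over all genes above 0, the list held 1 member at an unadjusted p under 0.05. This was Nr3c2, the mineralocorticoid receptor, with a normalized count of 929, 918, 959, 786 and 1010.1 in the 5 ZBTB7A stress libraries and 1144, 915, 750.4, 748 and 913 in the 5 ZBTB7A control libraries. It ran from 606 over a median of 721 to 752 in the 8 GFP stress libraries and was 855, 957, 857, 828 and 875 in the 5 GFP control libraries. All 8 GFP stress libraries lay below all 5 GFP control libraries and the ZBTB7A groups overlapped. How many of all genes separate the GFP groups in this way was not counted. The interaction of Nr3c2 was 0.37 ± 0.13 (log2, SE), with a limma adjusted p of 0.668 and an exact permutation p of 0.0188, unadjusted. It was 0.20 with the striatal level as a covariate. The glucocorticoid receptor Nr3c1 had 0.03 ± 0.09, its co-chaperone Fkbp5 0.34 ± 0.18, the induced gene Ddit4 0.42 ± 0.22 and the zinc-finger gene Zbtb16 -0.60 ± 0.30. Ddit4 had 0.21 without GFP control 2, the highest library of its group, and Fkbp5 had 0.22 without ZBTB7A control 15. The list's median was 0.01 without GFP control 2 and 0.20 without GFP control 10.

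Among neuropeptide and CRH system genes, 11 of the 23 tested members (of 26) were above 0, the median was -0.10, and 5 above 0 and 1 below had an unadjusted p under 0.05. The 5 were Cartpt, Nts, Penk, Pdyn and Tac1, of which Penk, Pdyn and Tac1 also stand in the striatal list, and the 1 below was Crhr1, the receptor for corticotropin-releasing hormone, at -0.69. The sign of the median depended on the libraries and covariates: it was 0.11 with the striatal level as a covariate (17 of 23 above 0), 0.41 with 3 tissue levels, 0.11 without the 5 far libraries (12 of 23 above 0) and 0.08 without GFP stress 21. Meningeal fibroblast and extracellular matrix genes had a median of 0.17, with 21 of 30 above 0 and 5 at an unadjusted p under 0.05, among them the laminins Lamb1 at 0.59 ± 0.21 and Lamc1 at 0.28 ± 0.13, the integrin Itga5 at 1.27 ± 0.45 and the collagen Col6a3 at 1.05 ± 0.49. That median was 0.08 without GFP stress 22 or GFP control 19 and 0.31 without ZBTB7A control 24.

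Blood genes had the lowest median of the lists, -2.20, with 8 of the 8 tested members (of 12) below 0 and 2 at an unadjusted p under 0.05. Alas2, the first enzyme of heme synthesis in red cells, had a normalized count of 33.1, 56, 45.9, 43.6 and 100.1 in the 5 ZBTB7A stress libraries and 40.2, 36.1, 70, 649 and 160.3 in the 5 ZBTB7A control libraries. It ran from 36.1 over a median of 71.7 to 670.1 in the 8 GFP stress libraries and was 37.8, 48.4, 58.6, 54.9 and 18.3 in the 5 GFP control libraries. The high values sat in ZBTB7A control 23 and GFP stress 12 and 13, and the other libraries overlapped. Its interaction was -2.34 ± 1.01, and the globin genes Hba-a2 and Hbb-bs, whose near-identical copies can share reads, had -2.07 ± 0.88 and -1.70 ± 0.91. The band 3 gene Slc4a1 had -3.80 ± 2.13, with 0 to 8.26 normalized counts in ZBTB7A stress against 1119 in ZBTB7A control 23, and -2.27 without that library. Without ZBTB7A control 23 the list's median was -1.29. Summed counts of the list were 5791 to 6822 in ZBTB7A stress, 4310.0 to 11919 in ZBTB7A control, 6649 to 12849.7 in GFP stress and 5384 to 6354 in GFP control. In ZBTB7A stress, Hba-a2, Hbb-bs, Alas2 and Slc4a1 averaged 98.4, 124, 55.7 and 4.76 normalized counts, so other members make up most of the sums there.

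ZBTB factors and the corepressor subunits that such factors recruit had a median of 0.02, with 17 of 28 above 0 and 4 at an unadjusted p under 0.05. These were Zbtb7c, described above, Zbtb20 at 1.11 ± 0.43, the remodeler Chd4 at 0.19 ± 0.09 and the corepressor scaffold Sin3a at 0.16 ± 0.08. For Zbtb20 the value was 0.30 with the striatal level as a covariate. Zbtb7a itself had -0.04 ± 0.11 with a 95% interval of -0.27 to 0.20, and its sign turned without GFP control 1 (0.04).

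**Figure D5:**
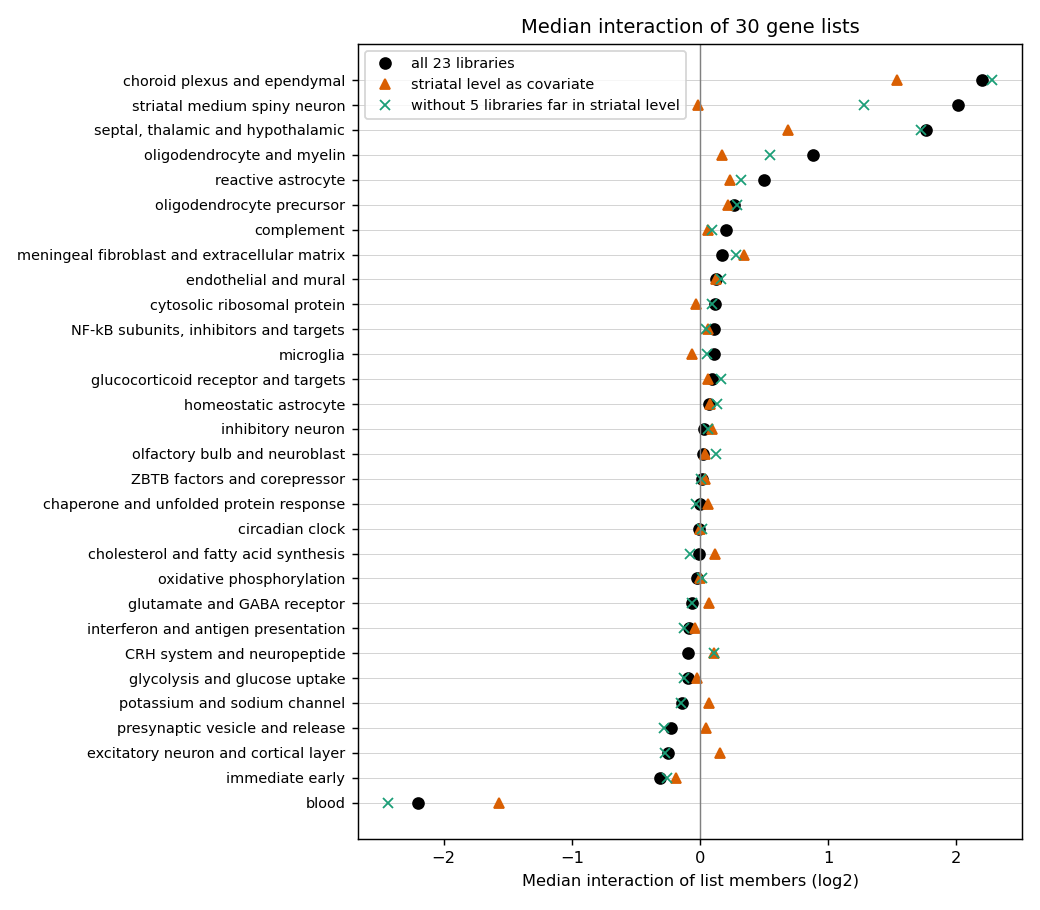
Median interaction (log2) of the tested members of 30 gene lists in all 23 libraries (circles), with the striatal level as a covariate (triangles) and without the 5 libraries far in striatal level (crosses). Choroid plexus, striatal and septal lists lie at 1.76 to 2.20 and blood at -2.20 in all libraries; the striatal covariate takes the striatal list to -0.01 and leaves the choroid plexus list at 1.54.

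With the striatal level as a covariate, 334 genes (2.04%) had an unadjusted p under 0.05 for the interaction, against 1216 without it, and the smallest adjusted p was 1. Without the 5 far libraries there were 1743 such genes (10.6%) and 0 calls. Among the 4 leading genes, Cartpt, Ntn1, Kl and Zbtb7c stood at 1.76, 0.85, 1.83 and 0.71 with the covariate and at 2.24, 1.18, 1.79 and 0.89 without those libraries. The striatal level itself averaged 0.90 in ZBTB7A stress, 0.12 in ZBTB7A control, -0.92 in GFP stress and 0.45 in GFP control. The covariate thus overlaps with the contrast, and why the count fell with it was not tested.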

How the data were processed

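The values are the authors' deposited normalized counts, a signal of reads divided by 1 size factor per library, with no length correction. Tools in the submitters' processing notes are featureCounts 2.0.1, HISAT2 2.1.0 and DESeq2 2.11.40.6, with the builds mm10 and mm9 and no role for each, and the strand setting of the counting is not given in the sources used here. The labels give polyadenylated RNA and TruSeq RNA v2 libraries. Of 27606 entries, 428 identical repeats were removed, and 16385 genes that reached 10 in at least 5 libraries entered the tests as log2(value + 1). Limma 3.58.1 in R 4.3.3 (4 group means, trended and robust empirical Bayes, two-sided, Benjamini-Hochberg over all tested genes, threshold 0.05) gave each contrast, and fold changes of low genes are understated by the pseudocount. In every library 100% of values were whole reads within 0.02 reads, so edgeR 4.0.16 and DESeq2 1.42.0 were run on recovered reads as alternatives. Single genes were also tested by exact permutation of stress labels within each vector.

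The comparison, gene lists and rules were chosen with earlier results of these data known. Named genes are a panel of 13, any gene past the threshold, the 12 of smallest p in each direction with a mean of 50 or more, and up to 4 of smallest p in each list described; genes with no symbol were left out, and 3 genes that the rule names are not reported here. Other members named were chosen after their values were seen. Alternatives were another pseudocount, filter, scaling, test, threshold or weighting, covariates, 5 libraries removed and each library left out. Scripts were tested on simulated data. Python 3.11.15 with numpy 2.4.6, pandas 2.3.3 and matplotlib 3.10.9 made the tables and figures.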

Additional observations from a re-analysis of the deposited data

Results flagged for a closer look

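Of 348 groups of libraries tested for the named genes, 22 held a library whose distance to its nearest neighbour was an unusually large share of the group's range by Dixon's 95% limit. Chance flags about 1 in 20 groups. The share is given for each on the log2 scale, and no cause was tested.

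In ZBTB7A stress, the lowest library stood apart for Slc1a2 (library 7, 0.719 of the range) and the highest for Cxcl10 (library 17, 0.721), Fos (library 25, 0.875) and Dusp1 (library 25, 0.829). ZBTB7A control 6 stood apart for 5 genes, as the highest for Slc32a1 (0.739), Ddit4 (0.792) and Col6a3 (0.788) and as the lowest for Stx1a (0.743) and Syt1 (0.739). ZBTB7A control 15 was the highest for Slc1a2 (0.81) and the lowest for Zbtb7c (0.898), and ZBTB7A control 23 the highest for Dusp1 (0.784) and Slc4a1 (0.774).

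GFP stress 13 was the lowest for Zmynd19 (0.612) and the highest for Gja1 (0.579), Lamc1 (0.749) and Col6a3 (0.71). In GFP control, library 11 was the highest for Nt5m (0.798) and the lowest for Atad2 (0.767), and the highest library stood apart for Nfkbia (library 2, 0.711), Nr3c1 (library 1, 0.836) and Olig1 (library 10, 0.717). Without ZBTB7A control 15 the interaction of Zbtb7c was 0.81, beside 0.94 in all libraries.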

How the results depend on the processing

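The count of 0 called genes for the interaction held with edgeR, with TMM scaling, with a pseudocount of 5, without a filter on low values, with a filter at a mean of 50, without the robust option, with the run of title numbers (they cycle over the groups 3 times), striatal or 3 tissue covariates and without the 5 far libraries. It was 3 with DESeq2, 2068 with array weights and 1 at an adjusted p under 0.1, and 0 to 79 with 1 library left out. The unadjusted count of 1216 was 5064 with array weights, 334 with the striatal covariate, 705 with 3 tissue levels and 720 to 3406 with 1 library left out: 3406 without ZBTB7A control 6, 2104 without GFP control 11, 742 without ZBTB7A control 15, 737 without ZBTB7A stress 9 and 720 without ZBTB7A control 23. Stress under ZBTB7A gave 1 call with DESeq2, and stress under GFP 39 with DESeq2, 668 with array weights and 1 with 3 tissue levels. The cause of these moves was not tested. No paired analysis was possible because no replicate number is shared between groups.

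Interactions of named genes that turned sign, none of which passed the test, did so mostly with 3 tissue levels: Zbtb7a (0.0030), Gfap (-0.65), Slc1a3 (-0.047), Lcn2 (-0.23), Cxcl10 (-0.88), C3 (-1.19), Mal (-0.28), Olig1 (-0.058), Fa2h (-0.26), Tm4sf1 (-0.054), Cd109 (-0.71), Gja1 (-0.061), Mlc1 (-0.12), Camk2a (0.16), Slc32a1 (-0.076), Stx1a (0.36), Syp (0.26), Syt1 (0.24), Col6a3 (-0.21) and Zbtb20 (-0.036). With the striatal covariate Slc1a2 (0.0043), Cxcl10 (-0.12), Syp (0.042) and Syt1 (0.081) turned. Cxcl10 and Nr3c1 also turned with array weights (-0.00094 and -0.087) and without the 5 far libraries (-0.39 and -0.0084). With 1 library left out, the interaction ranged from -0.11 to 0.043 for Zbtb7a, -0.059 to 0.018 for Slc1a2, -0.015 to 0.10 for Glul, -0.12 to 0.68 for Cxcl10 and -0.031 to 0.056 for Nr3c1. Recovered depths were 12.5 to 51.9 M reads, and the limit that depth sets was not separated from the spread between libraries.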
